A study of Mus musculus with 19 samples.

Results

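The FLAG ChIP-seq library of the first FLAG/FLAG mouse held 1678 promoter summits that no other ChIP library had. A summit is the base where a called peak is highest. These summits were selected on the peak calls themselves. Each lay within 1 kb of the transcription start site (TSS) of a protein-coding transcript in GENCODE, and neither the other FLAG/FLAG libraries nor any wild-type library had a summit within 1 kb of it. They were 1678 of the 4525 promoter summits of that library (37.1%) and of 12028 summits in the 6 ChIP libraries. They lay beside 1777 protein-coding genes.

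The study followed the initiation of meiosis in the mouse testis. Spermatogenesis was synchronized in all animals with WIN18,446, an inhibitor of retinoic acid synthesis, from postnatal day 2 to day 8, retinoic acid was injected on day 9, and testes were collected 6.75 days later. ChIP-seq with the FLAG M2 antibody was done on unsorted testis of 3 Stra8 FLAG/FLAG mice, a knock-in that tags only the long form of STRA8, and of 3 wild-type mice, which have no tag, all C57BL/6 (<4% 129). The methods state that FLAG/FLAG and wild-type libraries of the same number were processed together in 1 of 3 batches, and the third batch used another library kit. RNA-seq was done on preleptotene germ cells sorted by tdTomato from C57BL/6 mice carrying Ddx4-Cre and Rosa26-tdTomato alleles. Of these libraries, 3 came from Stra8-deficient (Stra8 knock-out) mice, and 2 low-STRA8 and 2 high-STRA8 libraries came from Stra8 heterozygous mice, so that the controls also lacked 1 copy of Stra8. The cells bound in ChIP-seq and the cells measured in RNA-seq were therefore different preparations.

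STRA8 is induced by retinoic acid in germ cells and is needed for them to leave the mitotic program and enter meiotic prophase. It acts in the nucleus and binds DNA at promoters, and the study describes an 8-base binding motif, CNCCTCAG, in which N is any base. Preleptotene is the stage of the last DNA replication before meiosis, so genes of replication, cohesion and recombination are active in it together with the general machinery of the cell. A peak caller reports a peak only where a library's signal passes a threshold over its own input, so a promoter that lacks a summit in a library may still have carried signal there, and the depth of the ChIP libraries cannot be read from the summit lists.

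The sequences show what lay under these summits. Each run gives 100 bases around a summit on the plus strand of mm10, read from the RefSeq GRCm38.p6 genome, with matches to CNCCTCAG on either strand in capitals (the reverse complement reads CTGAGGNG). First come the 5 highest-scoring of the 1678 summits that held a match, taken among those in which annotated UTRs took up at most 30 bases.
Chd6, chr2:161108725-161108824: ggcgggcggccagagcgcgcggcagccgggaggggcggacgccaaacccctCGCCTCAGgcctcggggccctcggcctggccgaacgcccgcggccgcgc
Zfp609, chr9:65827177-65827276: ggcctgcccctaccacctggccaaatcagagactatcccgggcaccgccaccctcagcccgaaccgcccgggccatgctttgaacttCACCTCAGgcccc
Kremen1, chr11:5261652-5261751: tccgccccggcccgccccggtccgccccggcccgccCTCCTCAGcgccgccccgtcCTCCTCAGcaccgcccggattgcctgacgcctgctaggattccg
Tnpo1, chr13:98890383-98890482: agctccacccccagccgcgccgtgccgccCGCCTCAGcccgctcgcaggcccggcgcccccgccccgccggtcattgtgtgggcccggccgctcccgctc
Rap1gds1, chr3:139075339-139075438: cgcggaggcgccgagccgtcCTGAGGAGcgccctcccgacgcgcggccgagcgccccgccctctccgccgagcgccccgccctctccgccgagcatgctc

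Next are the 2 summits with the highest scores of all, neither of which held a match. Their scores, the −log10 p of the peak at its summit, were 61.2 at Gclm and 46.9 at Lpin2.
Gclm, chr3:122245455-122245554: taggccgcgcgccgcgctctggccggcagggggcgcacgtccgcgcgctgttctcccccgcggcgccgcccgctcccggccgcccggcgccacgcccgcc
Lpin2, chr17:71183802-71183901: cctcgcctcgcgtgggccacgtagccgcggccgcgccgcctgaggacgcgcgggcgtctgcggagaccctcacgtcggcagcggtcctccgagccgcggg

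The 3 lowest-scoring windows that met the same rule held no match either, and their scores were 5.37, 5.47 and 5.55.
Mzt1, chr14:99045916-99046015: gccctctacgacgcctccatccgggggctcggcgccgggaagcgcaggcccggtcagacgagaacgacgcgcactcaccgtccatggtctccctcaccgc
Nadk2, chr15:9071107-9071206: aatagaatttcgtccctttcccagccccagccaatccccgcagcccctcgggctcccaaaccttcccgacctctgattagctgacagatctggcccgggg
Aph1c, chr9:66835000-66835099: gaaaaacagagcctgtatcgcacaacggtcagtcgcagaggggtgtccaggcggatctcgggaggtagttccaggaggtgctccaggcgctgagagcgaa

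For contrast, the windows of 2 promoters with a summit in all 3 FLAG/FLAG libraries and very high scores in the first one (336.4 at Iqsec1) follow. The Iqsec1 window held 3 matches and the Sgpl1 window 1, in a stretch of repeated units.
Iqsec1, chr6:90988984-90989083: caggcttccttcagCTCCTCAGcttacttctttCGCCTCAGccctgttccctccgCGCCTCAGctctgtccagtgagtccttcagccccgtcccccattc
Sgpl1, chr10:61147197-61147296: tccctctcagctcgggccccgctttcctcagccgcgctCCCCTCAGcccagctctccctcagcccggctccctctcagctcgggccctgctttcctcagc

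The single-library summits came mostly from weak peaks. Their scores ran from 5.37 to 61.2 with a median of 11.5 and quartiles of 9.33 and 14.9. The 1322 promoter summits that the first library shared with 1 other FLAG/FLAG library had a median of 14.9, and the 1440 shared with both others had a median of 29.3. A further 85 promoter summits of the first library had a wild-type summit within 1 kb and entered none of these classes. Only 147 of the 1678 (8.76%) scored 20 or more, against 1017 of 1440 (70.6%) for those in all 3 libraries. Scores repeated often, with 502 distinct values among the 1678 summits and 28 summits at 10.8 alone. These scores are from the library that chose the summits and are given as a description.

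The share of summits without a counterpart was lower in each higher score range. Under a score of 10, 549 of 826 promoter summits of the first library (66.5%) were seen there only. The share was 53.6% (732 of 1365) from 10 to 15, 35.5% (250 of 704) from 15 to 20 and 17.0% (119 of 701) from 20 to 30. At 30 or more it was 3.32% (28 of 844), where 83.2% were seen in all 3 libraries. High-scoring summits without a counterpart were thus few but present.

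**Figure D1:**
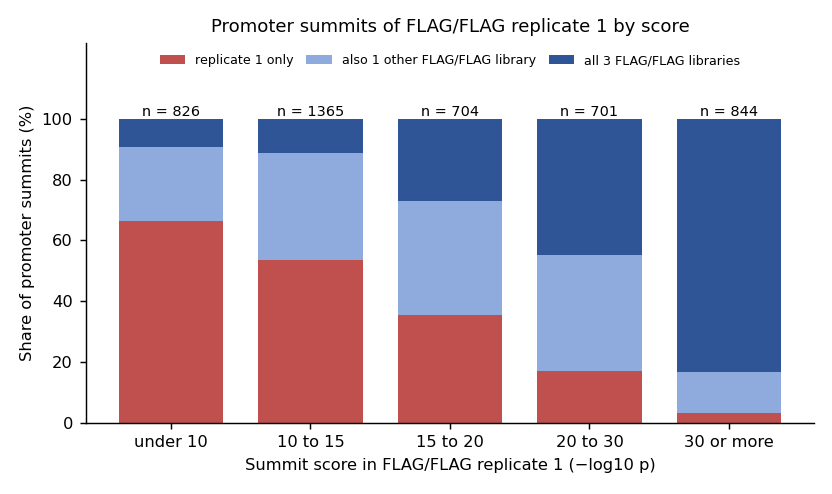
Share of the promoter summits of FLAG/FLAG replicate 1 (vertical axis, %) that were seen in that library only, in 1 other FLAG/FLAG library or in all 3, in 5 ranges of summit score (horizontal axis, −log10 p), with the number of summits above each bar. Summits of replicate 1 only made up 66.5% of the lowest range and 3.32% of the highest.

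The other FLAG/FLAG libraries had far fewer summits of this kind. The first library held 5687 summits, the second 3299 and the third 2035, of which 79.6%, 88.5% and 83.4% lay at promoters. Promoter summits seen only in the second library numbered 242 (8.29% of 2918) and those seen only in the third 63 (3.71% of 1698), with median scores of 10.1 and 9.50. The wild-type libraries held 798, 45 and 164 summits, of which 12.8%, 31.1% and 10.4% lay at promoters. The first wild-type library, from the same batch as the first FLAG/FLAG library, thus had the most summits of the 3. Whether the batch, the depth or the yield of the first library gave the extra summits was not tested. The second library was the one that most defined the group, since without it 2825 promoter summits of the first library had no counterpart, and without the third 1853.

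Few of the 1678 missed a counterpart by a small distance. The nearest summit of another FLAG/FLAG library was within 2000 bases for 29 (1.73%) and within 10000 bases for 84 (5.01%), and the median distance was 128162 bases. Just inside the limit lay the summits at Zfp777 and Aldh1a2, each 1014 bases from a summit of the second library, with scores of 21.2 and 19.6. Just outside it lay those at Dip2c and Tro, 1000 and 989 bases from the nearest summit of another library, with scores of 10.6 and 8.21. For the distance to a TSS, Nkx2-4 (995 bases) and Dlgap3 (992 bases) were the last inside, and Fam161a (1011 bases) and Tmem236 (1042 bases) the first outside.

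Within promoters, the single-library summits sat where the shared ones did. The median distance to the nearest TSS was 89 bases, against 93 and 91 for summits shared with 1 and with both other libraries. Within 100 bases of the TSS lay 54.1% of them, 51.1% of those shared with 1 library and 54.0% of those shared with both. Downstream of the TSS lay 969 (57.7%) and upstream 701, with 58.1% downstream among summits shared with 1 library and 52.0% among those in all 3. Closeness to a TSS was part of the selection, but the place within the 1 kb window was not. By the annotation, 678 summits (40.4%) lay in a 5' UTR, 398 (23.7%) in an intron, 189 (11.3%) in a coding exon and 412 (24.6%) upstream of every protein-coding transcript, and 1, at Tmem88, lay in a 3' UTR.

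**Figure D2:**
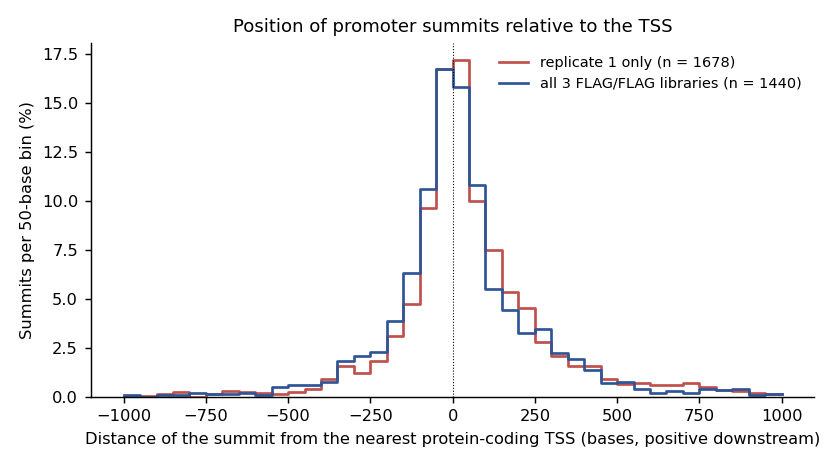
Distance of promoter summits from the nearest protein-coding TSS (horizontal axis, bases, positive downstream) as the percent of summits in each 50-base bin (vertical axis), for the 1678 summits of FLAG/FLAG replicate 1 only and the 1440 in all 3 FLAG/FLAG libraries. Both distributions peak at the TSS, with median distances of 89 and 91 bases.

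Many of these promoters serve more than 1 gene. Of the 1678 summits, 211 (12.6%) lay within 1 kb of the TSSs of 2 or more genes, against 16.2% of those in all 3 libraries, so their gene cannot be told from the summit. By chromosome, the share of the first library's promoter summits that had no counterpart ran from 33.1% (chromosome 11) to 43.2% (chromosome 10) on the autosomes. On the X it was 50% (56 of 112). These shares are counts of single libraries and carry no test.

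Under the single-library summits, CNCCTCAG was less frequent than under the shared ones and more frequent than at promoters at large. Within 50 bases of the summit, 91 of 1678 windows (5.42%, Wilson 95% interval 4.44 to 6.61) held a match. The share was 9.53% (8.06 to 11.2) for summits shared with 1 other library and 17.7% (15.8 to 19.8) for those in all 3, and 3.50% (3.35 to 3.66) in 54327 windows centred on TSSs. Promoter summits of the wild-type libraries had a match in 3 of 129 windows (2.33%, 0.794 to 6.61). Summits seen only in the second library had one in 16 of 242 windows (6.61%, 4.11 to 10.5), an interval that overlaps the one for the first library. Windows with 2 matches numbered 3 of 1678, at Kremen1, Herc1 and the promoter of Fiz1, Zfp524 and Gm44973, whereas 33 of 1440 windows in all 3 libraries held 2 or more and up to 6. Intervals cover counting error over windows only, and neighbouring windows can overlap. The study found the motif at peaks of these FLAG/FLAG libraries, so its shares under their summits are not independent of that search.

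Inside the group, the match was most frequent at high scores. It was in 4.01% of windows under a score of 10 (22 of 549), 4.92% from 10 to 15, 8% from 15 to 20, 7.56% from 20 to 30 and 14.3% (4 of 28, interval 5.70 to 31.5) at 30 or more. In the same ranges, summits in all 3 libraries had matches in 3.85%, 7.10%, 14.7%, 14% and 24.1% of windows. Within each range the intervals of these 2 classes overlapped, and the difference at equal score was not tested. Matches also gathered at the summit. Per 100 single-library summits there were 3.16 matches in the 50 bases before the summit and 2.86 in the 50 bases after it, against 1.01 and 0.894 in the outermost 50-base bins, 450 to 500 bases away. For summits in all 3 libraries the figures were 12.1 and 10.8 at the summit and 1.94 and 2.71 at the same outer bins.

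**Figure D3:**
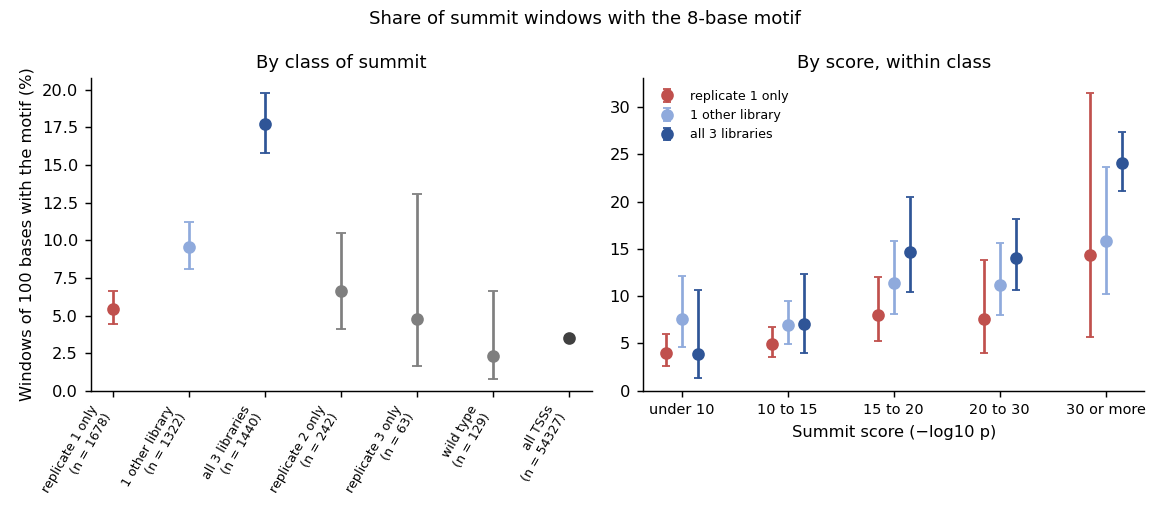
Left, percent of 100-base windows with a CNCCTCAG match (vertical axis) for 6 classes of promoter summit and for all TSSs, with Wilson 95% intervals and the number of windows under each. Right, the same share in 5 ranges of summit score (horizontal axis, −log10 p) for summits of replicate 1 only, of 1 other library and of all 3, where the share is 4.01% in the lowest and 14.3% in the highest range of the first class.

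Other promoter motifs did not separate the classes of the first library. The GC box GGGCGG, bound by SP1-type factors, was in 43.9% of the 1678 windows, 44.3% of those shared with 1 library and 42.6% of those in all 3, against 23.9% around all TSSs. The palindrome GCCNNNGGC of AP-2 factors was in 17.4%, 16.6% and 15.6%, against 8.26%. CCGGAAG, the core of ETS factors, was in 7.21%, 7.03% and 6.18%, against 5.63%. For the E-box CACGTG the shares were 2.80%, 2.95% and 3.40%, and for GCATGCGC, a part of the NRF1 site, 3.34%, 2.27% and 3.40%, against 2.71% and 1.31% at all TSSs. CCAAT was in 7.63%, 7.79% and 7.36%, against 11.7%, and the cyclic AMP response element TGACGTCA in 0.954%, 0.756% and 0.486%, against 0.942%. All were searched on both strands, and matches of different motifs may overlap. Median GC content was 72.0% in all 3 classes of the first library and 59.0% around all TSSs, and the median ratio of observed to expected CpG was 0.938 under single-library summits, 0.939 under those in all 3 libraries and 0.595 at all TSSs. What this base composition contributed to the match shares was not tested.

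The genes beside these summits were active ones. Of the 1777 genes, 1708 (96.1%) were above 1 TPM (transcripts per 1e6) in at least 1 of 7 RNA libraries and entered the tests, against 56.8% of all 21866 protein-coding genes with a TSS. Of the other 69, 52 were below that level and 17 could not be matched to counts. In Stra8-deficient cells the tested genes had a median of 40.7 TPM, and with high STRA8 it was 39.2 TPM, against 26.4 and 25 TPM for all tested genes and 54.4 and 78.3 TPM for genes with a summit in all 3 libraries. A counterpart at another promoter was rare, since 1733 of the 1777 had no summit of another library within 1 kb of any of their protein-coding TSSs.

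In the RNA, Stra8 itself was at 18, 22.8 and 5.16 TPM in the Stra8-deficient libraries, 315 and 236 TPM in the low-STRA8 libraries and 1100 and 1250 TPM in the high-STRA8 libraries, in the order of the labels. The germ cell genes Ddx4 and Dazl were at 148 to 213 TPM and 1060 to 2060 TPM. Total estimated counts ran from 25049625 to 30015072. A list of 22 Sertoli cell markers summed to 1690 to 2280 TPM in the Stra8-deficient, 2380 and 941 TPM in the low-STRA8 and 2500 and 2570 TPM in the high-STRA8 libraries, with Sox9 at 1.55 to 7.95 TPM and none of the 22 at 0, and 18 to 21 of its genes were above 1 TPM. Leydig markers summed to 144 to 215 TPM, peritubular and endothelial markers to 62.5 to 119 TPM, macrophage and blood markers to 7.12 to 61.4 TPM, undifferentiated spermatogonia markers to 241 to 377 TPM and differentiating ones to 3280 to 4680 TPM. Undifferentiated markers were lower in both high-STRA8 libraries (259 and 241 TPM) than in the Stra8-deficient ones (368 to 377 TPM). Differentiating markers, a list that holds Stra8 itself, summed higher in them (4370 and 4680 TPM, against 3680 to 4130 TPM). That difference rests on Stra8, at 1100 and 1250 TPM against 5.16 to 22.8 TPM. Without Stra8 the sums were lower in both high-STRA8 libraries than in any Stra8-deficient library. Of the 14 listed genes, 2 were higher and 3 lower than in Stra8-deficient cells in the edgeR comparison given below. What these differences contributed to the counts of genes was not tested.

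Comparing high-STRA8 with Stra8-deficient cells asks which genes change with STRA8 at meiotic initiation. The study places high-STRA8 cells in mid or late preleptotene and names no part of that stage for Stra8-deficient cells. Genotype and stage therefore cannot be told apart in this comparison. Beside single-library summits, the share of genes that rose was near that of genes at large, with 306 of 1708 tested genes higher (17.9%), against 18.8% of all 12472 tested genes. A further 280 (16.4%) were lower, against 18.3%, and 1122 did not pass the threshold (adjusted p under 0.05, edgeR's quasi-likelihood test with Benjamini-Hochberg adjustment over all genes). The median log2 fold change was -0.02 for these genes and for all tested genes. Genes with a summit shared with 1 other library had 34.3% higher and 8.02% lower with a median of 0.19, and those with a summit in all 3 libraries 59.6% higher and 3.91% lower with a median of 0.53. Among 7565 tested genes without a promoter summit in any library 8.09% were higher and 23.6% lower, with a median of -0.17. The counts rested on both high-STRA8 libraries. Without the first, 157 genes were higher and 107 lower (9.19% and 6.26%, against 11.3% and 8.03% of all genes), and without the second 142 and 77 (8.31% and 4.51%, against 10.3% and 6.24%). With limma on log2(TPM + 1), 245 were higher and 412 lower. Increases then made up 37.3% of the calls instead of 52.2%, and 40.5% instead of 50.8% among all genes.

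Comparing high-STRA8 with low-STRA8 cells asks how genes differ between cells with more and with less STRA8, which also differ in stage. The study places low-STRA8 cells in early preleptotene, just before meiosis is initiated, and high-STRA8 cells in mid or late preleptotene, after it. The level of STRA8 and the stage cannot be told apart here. Here 386 of the 1708 genes were higher (22.6%, against 21.3% of all tested genes) and 307 lower (18%, against 18.3%), with a median log2 fold change of 0.01. This comparison uses the same high-STRA8 libraries as the previous one. Without the first high-STRA8 library 223 were higher and 112 lower (13.1% and 6.56%, against 12.7% and 8.11% of all genes), and without the second 161 and 48 (9.43% and 2.81%, against 9.76% and 4.24%). Without the second low-STRA8 library, which had the lowest Sertoli marker sum, 363 were higher and 158 lower (21.3% and 9.25%, against 18% and 13.1% of all genes). With limma on log2(TPM + 1), 468 were higher and 220 lower, a split of 68.0% instead of 55.7%, against 63.5% instead of 53.9% for all genes, and the median of all genes moved from 0.00 to 0.11.

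The genes whose summit held CNCCTCAG stood at other shares. Of 98 tested genes beside a single-library summit with a match, 36 (36.7%) were higher and 5 (5.10%) lower in the comparison with Stra8-deficient cells, with a median log2 fold change of 0.24. Of the 1610 without a match, 270 (16.8%) were higher and 275 (17.1%) lower, with a median of -0.03. Against low-STRA8 cells, 29 of the 98 (29.6%) were higher and 8 (8.16%) lower, and 357 (22.2%) and 299 (18.6%) of the 1610. A match at a TSS without a promoter summit in any library went with 12.3% higher and 17.5% lower of 405 tested genes in the first comparison. In the second the shares were 18.8% and 13.6%. With neither a summit nor a match, they were 7.89% and 24.1% of 7110 genes in the first and 12.3% and 23.1% in the second. A match under a summit seen in all 3 libraries went with 73.1% and 1.43% of 279 in the first and 71.0% and 2.51% in the second. Such a summit without a match went with 56.5% and 4.48% of 1206 in the first and 49.8% and 5.39% in the second. Without the first high-STRA8 library 23 of the 98 (23.5%) were higher and 1 lower in the first comparison, against 8.32% higher of the 1610, and without the second 26 (26.5%) and 1, against 7.20%. Against low-STRA8 cells the numbers were 20 (20.4%) and 1 without the first, against 12.6% higher of the 1610, and 15 (15.3%) and 0 without the second, against 9.07%. The summit's match took no part in the selection of the summits. The motif itself, however, was found by the study in pooled reads of these FLAG/FLAG libraries, at promoters of genes that rose in these RNA libraries. The shares are therefore not independent of how the motif was found, and the difference between these lists was not tested.

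By summit score, and beside 18.8% higher and 18.3% lower among all tested genes, the shares differed as follows, with no test of the difference. In the first comparison, 81 of 529 genes (15.3%) whose best summit scored under 10 were higher and 98 (18.5%) lower. From 10 to 15 the shares were 17.7% and 17.4%, and from 15 to 20 19.5% and 11.3%. From 20 to 30, 32 of 131 (24.4%) were higher and 18 (13.7%) lower, and at 30 or more 8 of 30 (26.7%) were higher and 3 lower. Against low-STRA8 cells, beside 21.3% of all genes, the share higher was 18.7% under 10, 23.0% from 10 to 15, 22.9% from 15 to 20, 29.0% from 20 to 30 and 50% (15 of 30) at 30 or more.

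**Figure D4:**
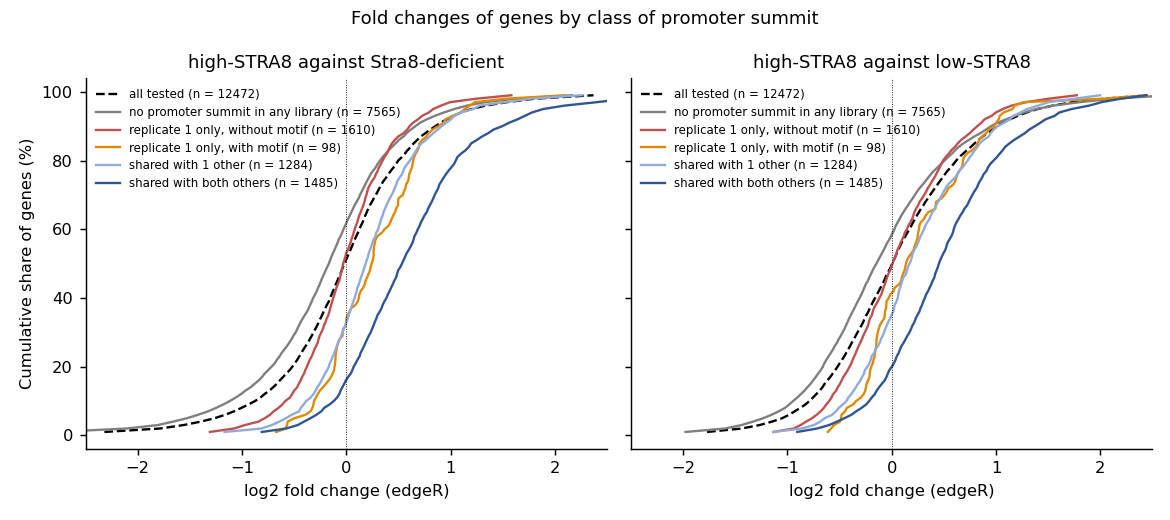
Cumulative share of tested genes (vertical axis, %) by log2 fold change from edgeR (horizontal axis), percentiles 1 to 99, in both comparisons, for genes by the class of their promoter summit. The 1610 genes beside a replicate 1 summit without the motif cross 0 near the dashed line of all 12472 genes, with medians of -0.03 and 0.01, and the 98 with the motif have a median of 0.24 in the first comparison, where their line meets that of all genes near the top.

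The 10 highest-scoring summits lay at Gclm, Lpin2, Mpp6, Ncoa6, Galnt1, Eif4enif1, Arhgef11, Braf, Pknox1 and Chd6. Eif4enif1, Braf and Chd6 had a match to CNCCTCAG. Gclm, the modifier subunit of the enzyme that starts glutathione synthesis, had the highest score (61.2, chromosome 3, 52 bases upstream of the TSS) and was at 250, 252 and 245 TPM in Stra8-deficient, 225 and 235 TPM in low-STRA8 and 202 and 198 TPM in high-STRA8 cells. The high-STRA8 libraries were the lowest, but neither comparison passed the threshold (log2 fold change -0.17, adjusted p = 0.17 by edgeR, and -0.27, adjusted p = 0.0568). Pknox1, a homeodomain transcription factor, was at 12, 14.2 and 10.1 TPM, 12 and 10.7 TPM, and 25.4 and 29.1 TPM in the same order. It rose by 1.26 (SE 0.136, adjusted p = 0.000335) against Stra8-deficient and by 1.10 (SE 0.153, adjusted p = 0.00159) against low-STRA8 cells on the log2 scale, with both high-STRA8 libraries above all others and the other groups overlapping.

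Lpin2, a phosphatidate phosphatase, was at 44.5, 49 and 43.4 TPM, 32.0 and 29.4 TPM, and 60.9 and 61.5 TPM, and rose in both comparisons (0.55, adjusted p = 0.00232 by edgeR, and 0.89, adjusted p = 0.000886). Eif4enif1, which carries the cap-binding protein eIF4E into the nucleus, rose by 0.50 (adjusted p = 0.00325) and 0.68 (adjusted p = 0.00192). Arhgef11, an exchange factor for small GTPases, rose by 0.32 (adjusted p = 0.0365) and 0.65 (adjusted p = 0.0034). The first of these calls on Arhgef11 was lost under 9 of the alternatives, leaving out either high-STRA8 library among them.

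Ncoa6, a nuclear receptor coactivator, and Chd6, a chromatin remodeler, passed against low-STRA8 and not against Stra8-deficient cells. Chd6 was at 56.5, 52.5 and 38.3 TPM in Stra8-deficient, 16.1 and 22.4 TPM in low-STRA8 and 43.2 and 48.4 TPM in high-STRA8 cells, so that the low-STRA8 libraries were the lowest and the others overlapped. Its log2 fold change was 1.16 against low-STRA8 (SE 0.212, adjusted p = 0.00442 by edgeR) and 0.00 against Stra8-deficient cells (SE 0.191, adjusted p = 0.998). For Ncoa6 the values were 1.04 (adjusted p = 0.00352) and 0.17 (adjusted p = 0.446). The kinase gene Braf followed with 0.63 (adjusted p = 0.0221) and 0.26 (adjusted p = 0.23), a call against low-STRA8 cells that was lost without either high-STRA8 library or the first low-STRA8 library. Mpp6 and Galnt1 passed in neither comparison, at 113 to 129 TPM and 69.1 to 96.9 TPM over all 7 libraries.

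The 10 largest increases over Stra8-deficient cells lay between 2.08 and 3.43 on the log2 scale, and the largest was at the replication gene Prim1. Prim1, the catalytic subunit of primase (score 11.9, 7 bases upstream of the TSS), was at 32.6, 30.6 and 32.0 TPM in Stra8-deficient, 136 and 72.6 TPM in low-STRA8 and 318 and 330 TPM in high-STRA8 cells. The 3 groups did not overlap, and the increase was 10.8-fold (log2 3.43, SE 0.211, adjusted p = 5.51e-05 by edgeR) over Stra8-deficient and 2.88-fold (log2 1.53, adjusted p = 0.00203) over low-STRA8 cells. Ccnb3, a cyclin of meiotic cells, was at 6.76, 7.51 and 6.01 TPM, 14.7 and 10.1 TPM, and 42.5 and 45.1 TPM. It rose 6.90-fold (log2 2.79, SE 0.157, adjusted p = 5.27e-05) and 3.33-fold (log2 1.73, adjusted p = 0.000637).

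Cdc45, a part of the replicative helicase, was at 61.4, 69.6 and 68.0 TPM, 207 and 136 TPM, and 277 and 285 TPM (log2 2.16, SE 0.150, adjusted p = 6.61e-05, and 0.62, adjusted p = 0.0186, the latter lost without either high-STRA8 library, without the second low-STRA8 library and in a fit of only the 2 groups). Its summit, with a score of 20.6, also lay beside a second gene.

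Others of the 10 largest increases were Nrm, an inner nuclear membrane protein (log2 2.79, adjusted p = 0.000131 by edgeR), Fbxo5, an inhibitor of the anaphase-promoting complex (2.62, adjusted p = 0.000571), Tuba3b, an alpha tubulin (2.43, adjusted p = 0.00425), Spef2, a protein of the sperm tail (2.30, adjusted p = 0.00121), Arhgap33, a GTPase-activating protein (2.09, adjusted p = 5.81e-05), and Abhd18 (2.08, adjusted p = 0.000103). Fbxo5 also had a summit of another library at one of its promoters. Tuba3b has a close paralog, so its reads may be split between copies. Arhgap33 and Tuba3b had a match to CNCCTCAG at the summit. Arhgap33 was at 3.50, 4.64 and 3.66 TPM, 3.67 and 3 TPM, and 13.2 and 15 TPM, so that Stra8-deficient and low-STRA8 libraries overlapped and both lay under the high-STRA8 ones (log2 2.00 against low-STRA8, adjusted p = 0.000441).

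The decreases were smaller. None of the 10 largest had the motif, which only 98 of the 1708 tested genes had at their summit. That is too few for counts among 10 genes, here or in the increases, to be read. Hmx1, a homeobox gene, was at 24.9, 20.3 and 25.7 TPM in Stra8-deficient, 12.2 and 19.8 TPM in low-STRA8 and 5.24 and 5.21 TPM in high-STRA8 cells (log2 -2.12, SE 0.268, adjusted p = 0.000657 by edgeR, and -1.76, adjusted p = 0.00261). Arntl, a core transcription factor of the circadian clock, was at 8.88, 7.33 and 12.6 TPM, 7.43 and 10.4 TPM, and 3 and 2.6 TPM (log2 -1.72, adjusted p = 0.00386, and -1.84, adjusted p = 0.00445). In both genes the high-STRA8 libraries were the lowest. Dusp7, a phosphatase of MAP kinases, fell by 1.64 (adjusted p = 0.00029) and 1.17 (adjusted p = 0.0023), and Nlrx1, a mitochondrial NLR protein, was lower as well (log2 -1.42, adjusted p = 0.000986, and -1.39, adjusted p = 0.00215). Tsku, Tmem266, Mtus2, Glis1, Camkv and Zfyve28 made up the 10, between -1.95 and -1.31 on the log2 scale, and of these Camkv did not pass against low-STRA8 cells (log2 -0.31, adjusted p = 0.23). Against low-STRA8 cells the calls on Tmem266 (adjusted p = 0.0459), Mtus2 (adjusted p = 0.0446) and Zfyve28 (adjusted p = 0.0356) were lost without either high-STRA8 library, and that on Glis1 without the second.

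**Figure D5:**
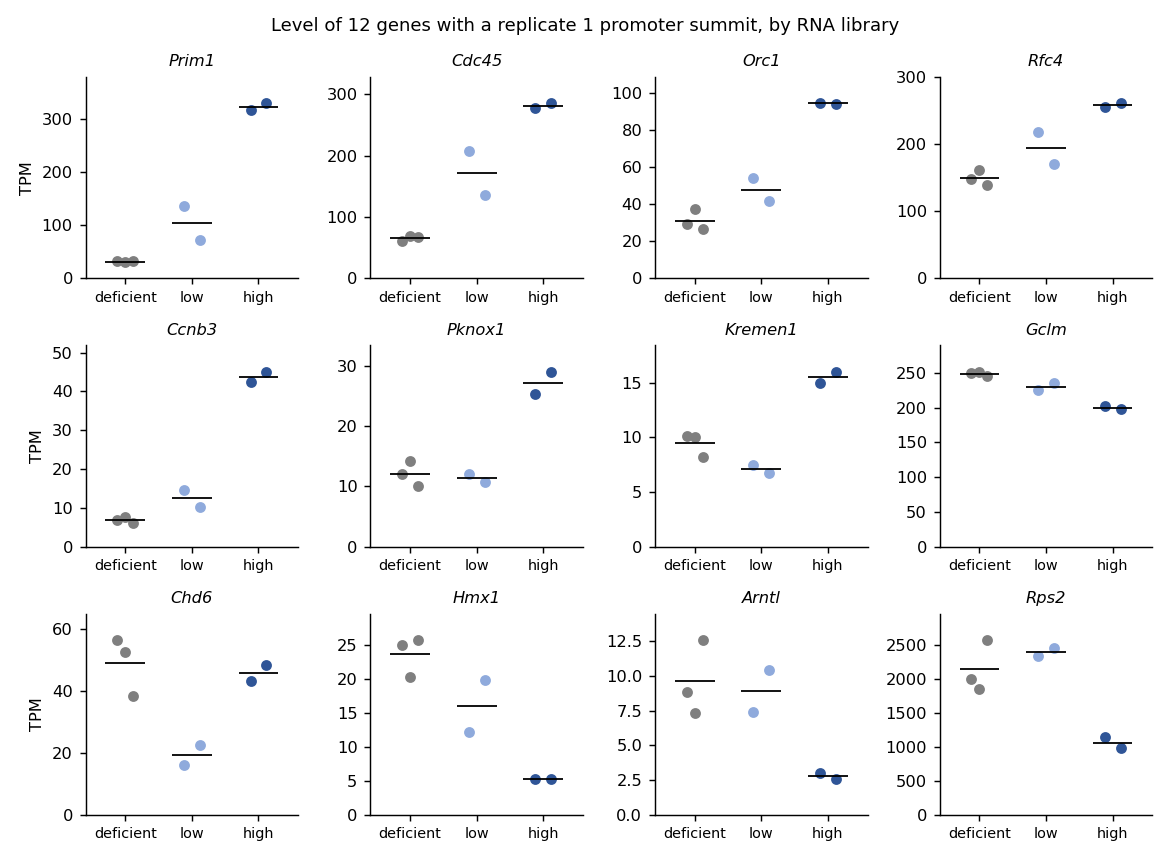
TPM (vertical axis, linear, from 0) of 12 genes beside a replicate 1 promoter summit in each RNA library, with 1 point per library (3 Stra8-deficient, 2 low-STRA8, 2 high-STRA8) and a bar at the group mean. Prim1 rises from 30.6 to 32.6 TPM in Stra8-deficient to 318 and 330 TPM in high-STRA8 libraries, while Gclm, with the highest score, stays between 198 and 252 TPM.

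Against low-STRA8 cells the largest increases were at Gm38394, Ankrd11, Kif15, Hectd4, Cep162 and Arhgap33. Ankrd11, a chromatin regulator, was at 40.1, 40.6 and 31.6 TPM in Stra8-deficient, 13.4 and 13.8 TPM in low-STRA8 and 36.3 and 42.2 TPM in high-STRA8 cells, so that its low-STRA8 libraries stood apart from the rest (log2 2.21, SE 0.225, adjusted p = 0.000644 by edgeR, against low-STRA8 and 0.14, adjusted p = 0.614, against Stra8-deficient cells). Its estimated counts, 726 and 1038 in low-STRA8 and 3801 and 4350 in high-STRA8 libraries, differed more than its TPM. The fold change comes from counts with no correction for transcript length. What this contributed to the gap between counts and TPM was not tested. Kif15, a mitotic kinesin, rose by 2.18 (adjusted p = 0.00119), Hectd4 by 2.17 (adjusted p = 0.000871) and Cep162, a centriole protein, by 2.04 (adjusted p = 0.000472). Gm38394 (2.86, adjusted p = 0.000472) shared its summit with 3 other genes, and overlapping genes may share its reads. The largest decreases were at Gm45692, Arntl, Hmx1, Znhit2, Tmem88 and Nlrx1. Gm45692 was listed at 0 in both high-STRA8 libraries and at 6.47 and 11.9 TPM in the low-STRA8 ones, and its call was lost under 5 alternatives. Znhit2 fell by 1.62 (adjusted p = 0.00104) and Tmem88 by 1.45 (adjusted p = 0.0164), the latter lost without either high-STRA8 library.

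The share of a functional list that lay beside single-library summits ran from 5.56% to 27.3% in the lists of cell machinery, against 13.7% of all tested genes, and no difference between these shares was tested. Of 31 tested genes of origin licensing and firing, 8 (25.8%) lay beside one. In high-STRA8 against Stra8-deficient cells 5 of the 8 were higher (Cdc45, Orc1, Topbp1, Mcm9 and Recql4), none lower, and Cdt1, Gins4 and Orc2 did not pass, with a median log2 fold change of 0.36. In the whole list 23 of 31 were higher and none lower, so the increase was not limited to the 8. Orc1, the large subunit of the origin recognition complex, was at 29.5, 37.2 and 26.6 TPM, 53.9 and 41.6 TPM, and 94.3 and 94.2 TPM (log2 1.70, SE 0.146, adjusted p = 0.00013 by edgeR, and 0.89, adjusted p = 0.00433). Topbp1, an activator of origins and of checkpoint signaling, rose by 0.65 (adjusted p = 0.00688) and 0.97 (adjusted p = 0.00254). Against low-STRA8 cells 4 of the 8 were higher and 1 lower, where 12 of the 31 were higher and 1 lower. The lower one was Cdt1, a licensing factor (-0.38, adjusted p = 0.0224), a call lost without either high-STRA8 library, as were those on Mcm9 and Recql4 in the first comparison. The call on Topbp1 in the first comparison was lost without the second.

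Of 41 tested genes of forks, polymerases and nucleotide synthesis, 7 (17.1%) lay beside one, and 6 of them rose against Stra8-deficient cells (Prim1, Rfc4, Rpa2, Dna2 and Rpa1 among them), against 30 of the 41 in the whole list. Rfc4, a clamp loader subunit, was at 148, 162 and 139 TPM, 219 and 171 TPM, and 255 and 261 TPM (log2 0.83, SE 0.108, adjusted p = 0.000726 by edgeR, and 0.27, adjusted p = 0.11). Tyms, thymidylate synthase, did not pass (-0.07, adjusted p = 0.807), and the calls on Rpa1 and Dna2 were lost without the second high-STRA8 library. Against low-STRA8 cells 2 of the 7 were higher, Prim1 among them, and none lower, where 22 of the 41 were higher and 3 lower. Of 53 tested genes of G2-M and mitosis 8 (15.1%) lay beside one, against Stra8-deficient cells with 4 higher (Spc25, Mad1l1, Ncapg and Ect2) and Fzr1, an activator of the anaphase-promoting complex, lower (-0.65, adjusted p = 0.00751, lost without the second high-STRA8 library), where 27 of the 53 were higher and 13 lower. Against low-STRA8 cells 6 of these 8 were higher and Fzr1 lower, and 31 and 12 of the 53, with Smc4, a condensin subunit, at 1.22 (adjusted p = 0.00207) and Foxm1, a transcription factor of mitotic genes, at 1.13 (adjusted p = 0.00311).

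Of 18 tested genes of the synaptonemal complex and meiotic cohesins, only Rad21, a cohesin subunit of mitotic cells as well, lay beside a single-library summit. A summit shared between FLAG/FLAG libraries was at 13 of the 18, and at 2769 of all 12472 tested genes. Rad21 was at 62.6 to 86.8 TPM over the 7 libraries and passed in neither comparison (log2 0.00, adjusted p = 0.994 by edgeR, and -0.06, adjusted p = 0.797). Of 33 tested genes of meiotic recombination and its DNA breaks, 3 lay beside one and 21 had a shared summit. The 3 were Msh4, a MutS homolog of meiotic crossovers, Xrcc3, a gene of recombination repair, and Trip13, an ATPase that remodels HORMA proteins. None of them passed against Stra8-deficient cells (log2 0.56, 0.37 and -0.19), and against low-STRA8 cells Msh4 (0.87, adjusted p = 0.0262) and Xrcc3 (0.96, adjusted p = 0.00726) were higher and Trip13 lower (-0.41, adjusted p = 0.0152). Without either high-STRA8 library the calls on Msh4 and Trip13 were lost, and without the first the call on Xrcc3. In telomere attachment Sun1, which links telomeres to the nuclear envelope, rose (0.54, adjusted p = 0.00167), Terf2, a telomere-binding protein, fell (-0.58, adjusted p = 0.00679, lost without the second high-STRA8 library) and Acd did not pass. These 3 were 27.3% of 11 tested genes, the highest share of the lists. In the whole lists, 13 of 18, 25 of 33 and 7 of 11 genes were higher against Stra8-deficient cells and 1, 1 and 3 lower. Against low-STRA8 cells 13, 25 and 6 were higher and 0, 2 and 2 lower.

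Chromatin modifiers were the largest list, with 26 of 113 tested genes (23.0%) beside a single-library summit. Against Stra8-deficient cells 3 were higher (Kdm6a, Pcgf5 and Suv39h1), 2 lower (Dnmt3a and Hdac2) and 21 did not pass. The calls on Pcgf5 and Hdac2 were lost without either high-STRA8 library. In the whole list 30 of 113 were higher and 18 lower. Against low-STRA8 cells 13 were higher and 1, Hdac2, lower, with a median of 0.42, and in the whole list 58 and 12. Crebbp and Kmt2d were chosen after their values were seen. Crebbp, a histone acetyltransferase, was at 29.4, 23.8 and 23.9 TPM in Stra8-deficient, 4.12 and 8.39 TPM in low-STRA8 and 24.4 and 23.4 TPM in high-STRA8 cells (log2 1.80, adjusted p = 0.00262 by edgeR, against low-STRA8, and 0.03, adjusted p = 0.943, against Stra8-deficient cells). Kmt2d, a histone H3 lysine methyltransferase, showed the same order, with 1.80 (adjusted p = 0.00171) and -0.27 (adjusted p = 0.374). Dnmt3a, a DNA methyltransferase of new sites, was at 92.9, 78.8 and 91.5 TPM, 43.1 and 53.5 TPM, and 50.5 and 46.8 TPM, and fell by 0.67 (SE 0.144, adjusted p = 0.00747) against Stra8-deficient cells, a call lost without either high-STRA8 library. Suv39h1, a histone H3 lysine methyltransferase with a match at its summit, rose by 0.50 (adjusted p = 0.00355), a call lost without the first high-STRA8 library.

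In translation and respiration, no gene beside these summits was higher against low-STRA8 cells, and hardly any of the whole lists was. Those higher numbered 0 of 79 cytosolic ribosomal protein, 0 of 77 oxidative phosphorylation and 1 of 78 mitochondrial ribosome genes. Of 79 tested cytosolic ribosomal protein genes, 12 (15.2%) lay beside one, and 10 of them were lower in that comparison and none higher, with a median log2 fold change of -0.80, against 66 lower of the 79. Against Stra8-deficient cells 4 of the 12 were lower, and 8 of the 79. Rps2 was at 1990, 1850 and 2570 TPM in Stra8-deficient, 2340 and 2450 TPM in low-STRA8 and 1140 and 982 TPM in high-STRA8 cells (log2 -0.89, SE 0.163, adjusted p = 0.0037 by edgeR, and -1.23, SE 0.176, adjusted p = 0.00177), so that the high-STRA8 libraries lay below all others. Rps3a1 (-0.59, adjusted p = 0.00609) and Rps10 (-0.42, adjusted p = 0.0428) were lower against Stra8-deficient cells as well, calls lost without the second high-STRA8 library. Ribosomal protein genes have many processed pseudogenes, and their reads may be split. Of 77 tested genes of oxidative phosphorylation, 18 (23.4%) lay beside one, with 11 lower and 7 not passing against low-STRA8 cells, where 58 of the 77 were lower. Against Stra8-deficient cells 2 were higher (Sdhc and Ndufa10) and 1 lower (Atp5c1), where 4 of the 77 were higher and 10 lower. These 3 calls were lost without the first high-STRA8 library. The calls on Atp5c1 and Ndufa10 were also lost without the second. That on Ndufa10 was lost as well without any 1 Stra8-deficient library and with another scaling. Of the mitochondrial ribosome 13 of 78 lay beside one, with 7 lower against low-STRA8 cells, where 39 of the 78 were lower, and 5 against Stra8-deficient cells, where 18 of the 78 were. The smallest adjusted p of the latter were at Mrpl43 (-0.53, adjusted p = 0.00794), Mrps24 (-0.70, adjusted p = 0.00806) and Mrpl45 (-0.53, adjusted p = 0.00969), all lost without the second high-STRA8 library.

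In the remaining lists few genes beside single-library summits passed against Stra8-deficient cells. In the whole lists, the numbers higher and lower were 18 and 7 of 37 G1-S regulators, 31 and 8 of 72 repair and checkpoint genes, 19 and 4 of 72 splicing genes, 18 and 6 of 54 nuclear pore genes, 6 and 11 of 43 proteasome genes and 6 and 11 of 32 piRNA pathway genes. Among G1-S regulators 8 of 37 lay beside one, with E2f4, a partner of pocket proteins whose summit held a match (log2 0.78, adjusted p = 0.000621 by edgeR), and Mycn higher, and Lin54 and E2f6 lower. Of DNA repair and checkpoint genes 9 of 72 lay beside one, with the mismatch repair gene Msh3 (0.86, adjusted p = 0.00181) and the helicase Wrn (0.70, adjusted p = 0.00438) higher and the nuclease Ercc4 (-0.82, adjusted p = 0.00941) lower. Splicing had 7 of 72, with Srsf9 higher, Prpf6 lower and Bud31 at 0.31 (adjusted p = 0.0588), and the nuclear pore and transport list 9 of 54, with Nup85 (0.80, adjusted p = 0.000422) and Nup93 higher and Rangap1 lower. For the proteasome it was 8 of 43, with Psmb4, which had a match at its summit, higher (0.65, adjusted p = 0.00614) and Psmd9 and Psma4 lower. Both piRNA pathway genes among 32 tested, Henmt1 (-0.84, adjusted p = 0.00395) and Tdrd3 (-0.68, adjusted p = 0.00382), were lower. Of the marker lists of other cells, 1 Sertoli gene, Gata4 (log2 0.28, adjusted p = 0.701), and none of the Leydig, peritubular, endothelial, macrophage or blood markers lay beside one. The spermatogonial markers beside one were Lin28a, Sox3 and Rhox13, none of which passed in this comparison. Of the calls in these lists, those on E2f4, Msh3, Wrn, Nup85 and Tdrd3 held without either high-STRA8 library, and the others were lost without at least 1 of them.

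Among the genes whose summit held CNCCTCAG, Kremen1, a receptor of DKK proteins in Wnt signaling and 1 of the 3 summits with 2 matches, was at 10.1, 10 and 8.19 TPM in Stra8-deficient, 7.43 and 6.72 TPM in low-STRA8 and 15 and 16 TPM in high-STRA8 cells. The high-STRA8 libraries lay above all others (log2 0.81, SE 0.119, adjusted p = 0.00129 by edgeR, and 1.03, SE 0.134, adjusted p = 0.00128). The other summits with 2 matches differed from it. Herc1 did not pass against Stra8-deficient cells (-0.08, adjusted p = 0.753) and was higher than in low-STRA8 cells (0.66, adjusted p = 0.0299), a call lost without either high-STRA8 library, without the first low-STRA8 library and without the second Stra8-deficient library. Fiz1 was lower in both comparisons (-0.56, adjusted p = 0.00903, and -0.66, adjusted p = 0.00708), and both calls were lost without the second high-STRA8 library. Zfp524, on the same promoter, passed in neither (-0.31, adjusted p = 0.251), and Gm44973 was not tested. Chosen after their values were seen, Foxo4, a forkhead transcription factor (log2 1.21, adjusted p = 0.00095 by edgeR), and Myt1l, a zinc finger transcription factor (0.94, adjusted p = 0.000747), were among the 36 increases, and Nol9, a kinase of ribosomal RNA processing (-0.72, adjusted p = 0.000613), was among the 5 decreases.

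Where 1 summit stood between 2 genes, the pair seldom moved in opposite directions, and most often at least 1 gene was not called. Of 201 such summits, 186 had both genes tested. In high-STRA8 against Stra8-deficient cells both genes were higher at 12, both lower at 3 and opposite at 2, while 1 gene was higher and its partner not called at 49, 1 lower and its partner not called at 38, and neither called at 82.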

How the data were processed

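Per the labels and the study's methods, the authors aligned ChIP reads with Bowtie 1.2.0, called peaks in each library against its own input with MACS2 2.1.1.20160309 and deposited summits whose score is −log10 p. For RNA, the authors estimated counts and TPM per transcript with kallisto 0.43.0, added up the protein-coding transcripts of each gene before rescaling TPM. The deposited estimated counts (expected counts) were joined to genes through GENCODE M21 (75554 of 75737 transcripts matched), within 0.2% or 0.003 TPM of the authors' TPM, for 12472 of 12545 genes above 1 TPM in at least 1 library. Total counts per library ran from 25049625 to 30015072. The authors' normalized counts and the input libraries were not used here.

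Summits within 1000 bases of a protein-coding TSS in GENCODE M21 were promoter summits. Rounded counts were tested with edgeR 4.0.16 (TMM, robust quasi-likelihood F test, 4 residual degrees of freedom) in R 4.3.3, in 1 fit over all 7 RNA libraries (3 Stra8-deficient, 2 with low and 2 with high STRA8), with Benjamini-Hochberg adjustment over all genes. The SE is the log2 fold change divided by the root of F. DESeq2 1.42.0, limma 3.58.1, another scaling, other filters, a replicate block and leaving out each library were alternatives. Motifs were matched in 100 bases around summits with Python 3.11.15. Scripts were tested on simulated data. p-values over the RNA libraries measure the spread between these samples.

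Genes named are those of the 10 highest scores, the 10 largest increases and 10 largest decreases against Stra8-deficient and 6 and 6 against low-STRA8 cells (passing the test, groups apart in TPM, mean of 5 TPM or more where higher), up to 3 of each of 22 gene lists by adjusted p, the 3 summits with the most motif matches and those nearest each limit, plus list members given to explain a count. The summits, lists, motifs and rules were chosen with earlier results of these data known. Values of some genes are not reported here.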

Additional observations from a re-analysis of the deposited data

How the results depend on the processing

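The count of 1678 summits ran from 1576 to 1802 with other promoter windows, sharing distances and TSS sets, and was 1129 at a score of 10 or more. Without one of the other FLAG/FLAG libraries it was 1853 (without replicate 3) or 2825 (without replicate 2). The share with CNCCTCAG was 5.38% to 6.11% under other sharing distances and the score minimum, and 5.23% to 7.47% without one of those libraries. In wider windows it was 9.89% (100 bases on each side) and 15.8% (200 bases). Leaving out 1 RNA library at a time, genes higher against Stra8-deficient cells ran from 142 to 338 and lower ones from 77 to 327. Against low-STRA8 cells the ranges were 161 to 388 and 48 to 320. The lowest values came without a high-STRA8 library, where the lone library is assumed to vary like the others. Restricting the summits to scores of 10 or more left 182 genes lower against Stra8-deficient cells, from fewer summits. With the replicate number as a block, 241 and 187 genes were higher and lower against Stra8-deficient and 373 and 265 against low-STRA8 cells. Same-numbered RNA libraries correlated at -0.167 to -0.0268 in their deviations from group means, so the numbers were not taken to pair samples. With the numbers of the low-STRA8 libraries crossed, an alternative chosen after seeing the data, the counts were 265 and 242, and 397 and 310. The other alternatives left these 4 counts within 1.5 times. The RNA depth limits low genes most, and the summit lists give no depth.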

Other observations

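The first FLAG/FLAG library also held 946 summits farther than 1 kb from any protein-coding TSS and without a wild-type summit within 1 kb. Of their 100-base windows, 70 (7.40%, Wilson 95% interval 5.90 to 9.25) had a match to CNCCTCAG, and 19 had 2 or more, up to 7 in a window. Their median GC content was 55.0%, against 72.0% under the promoter summits.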
